A study of Homo sapiens with 6 samples.

Results

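Cytotoxic granules are secretory lysosomes of killer lymphocytes. Perforin (PRF1) opens the membrane of a target cell, the serine proteases called granzymes (GZMA, GZMB, GZMK, GZMM) enter and cleave proteins there, and granulysin (GNLY) permeabilises membranes of microbes. Serglycin (SRGN) is the proteoglycan that packs these cargoes, NKG7 is a small membrane protein of the granule, and CTSW encodes the cathepsin W protease. T and natural killer (NK) cells are the usual sources of these transcripts. B cells can make granzyme B when stimulated, and serglycin is made by many blood cells. The genes described here are these 9, chosen by symbol from 20046 named genes on the array, and all 12 probes annotated to them were used.

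They were measured in Mec-1, an established human cell line of B cell origin that resembles chronic lymphocytic leukaemia (CLL), on Illumina beadchips. In 3 samples the cells had received a scrambled short hairpin RNA (shRNA) cassette, TR30013, as the control, and in 3 samples the pGFP-V-RS construct TG309422 with an shRNA against SLAMF1, the gene of the surface receptor CD150. Both variants grew in complete medium, and the parental line carries SLAMF1 constitutively per the labels. The design text calls the 3 arrays of a kind biological replicates and does not say whether each variant was 1 clone or separate cultures, so p-values measure only the spread between these samples. All 6 arrays were on 1 chip, with the control arrays in the first 3 positions. Position on the chip and label therefore cannot be told apart.

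SLAMF1 itself was not lower where it was to be silenced. Its probe read a normalized log2 level of 8.22 ± 0.19 (SD, n = 3) on the control arrays and 8.60 ± 0.13 (SD, n = 3) on the others, a log2 difference of 0.38 (standard error 0.18, limma adjusted p = 0.153), with values of 0.10 to 0.46 under all alternatives. The position of the probe relative to the shRNA target is not given in the sources used here. For this transcript the measurement goes against the label, so each direction below compares the arrays labelled SLAMF1 shRNA with those labelled control. Mean signals ran from 208 to 294.3 over a background signal of 82.0 to 88.7, and 36.3% to 41.4% of probes were detected per array, with a detection p-value under 0.05 against the negative control probes. Replicate 2 of the SLAMF1 shRNA arrays had the lowest of both and stood apart: it correlated at 0.928 and 0.942 with replicates 1 and 3 across the tested genes, which correlated at 0.994 with each other.

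The promoters of PRF1 and NKG7, the members that rose, are shown as the 250 bases before the annotated gene start, 5′ to 3′ on the gene's strand (RefSeq, GRCh38.p14). Both genes lie on the minus strand, PRF1 at chr10:70602742-70602991 and NKG7 at chr19:51372655-51372904 for the windows shown. Capitals mark matches, on either strand, to the letters AGGAAG of ETS factors or TGTGGT of RUNX factors.
PRF1: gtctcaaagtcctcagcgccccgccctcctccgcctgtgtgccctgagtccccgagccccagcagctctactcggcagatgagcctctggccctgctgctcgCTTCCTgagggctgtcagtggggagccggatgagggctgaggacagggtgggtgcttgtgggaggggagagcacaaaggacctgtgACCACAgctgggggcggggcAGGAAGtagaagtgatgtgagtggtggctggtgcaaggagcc
NKG7: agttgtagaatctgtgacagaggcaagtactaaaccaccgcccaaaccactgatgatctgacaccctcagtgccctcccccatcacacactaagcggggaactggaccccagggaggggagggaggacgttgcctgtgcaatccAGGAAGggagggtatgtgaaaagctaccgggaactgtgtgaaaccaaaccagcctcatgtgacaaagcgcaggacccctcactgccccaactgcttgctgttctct

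The PRF1 window held the ETS letters at positions -148 and -42 from the gene start and the RUNX letters at -62. The NKG7 window held the ETS letters at -106 and no RUNX letters. The matches do not overlap. Of 35116 promoter windows of this length, 28.7% held the ETS letters and 11% the RUNX letters, so ETS matches are common and RUNX matches less so. Whether the members hold the RUNX letters more often than other genes was not tested. The letters GGTGTGA of T-box factors (2.76% of windows), TTANGTAA of NFIL3 (1.98%) and TTCNNNGAA of STAT factors (6.57%) were in neither window. They were also in none of the GZMA, GZMB and GNLY windows, the other members among the 5 found in the promoter table, and these 3 windows each held the RUNX letters and no ETS letters. A match describes letters and not a bound site.

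PRF1 and NKG7 rose, GZMK fell, and SRGN, GNLY and GZMM did not pass the test. These 6 members had a probe that passed the filter (detected on at least 3 of the 6 arrays) and were tested by limma, with p-values adjusted over all 10832 tested genes by the Benjamini-Hochberg method and a threshold of 0.05. In this comparison 12.9% of all tested genes were called higher and 11.7% lower, 24.6% in either direction, and the 3 calls among 6 members are to be read against these shares. With median centring in place of quantile normalization, 42.5% of all calls were higher rather than 52.5%, and the median over all genes moved from 0.02 to -0.14. The median log2 difference of the 6 was -0.17 against 0.02 over all tested genes. The 3 arrays of each label did not overlap for PRF1 and NKG7 (higher) and for GZMK and GNLY (lower), where 23.7% and 22.0% of all tested genes did the same. GZMA, GZMB and CTSW did not pass the filter.

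**Figure D1:**
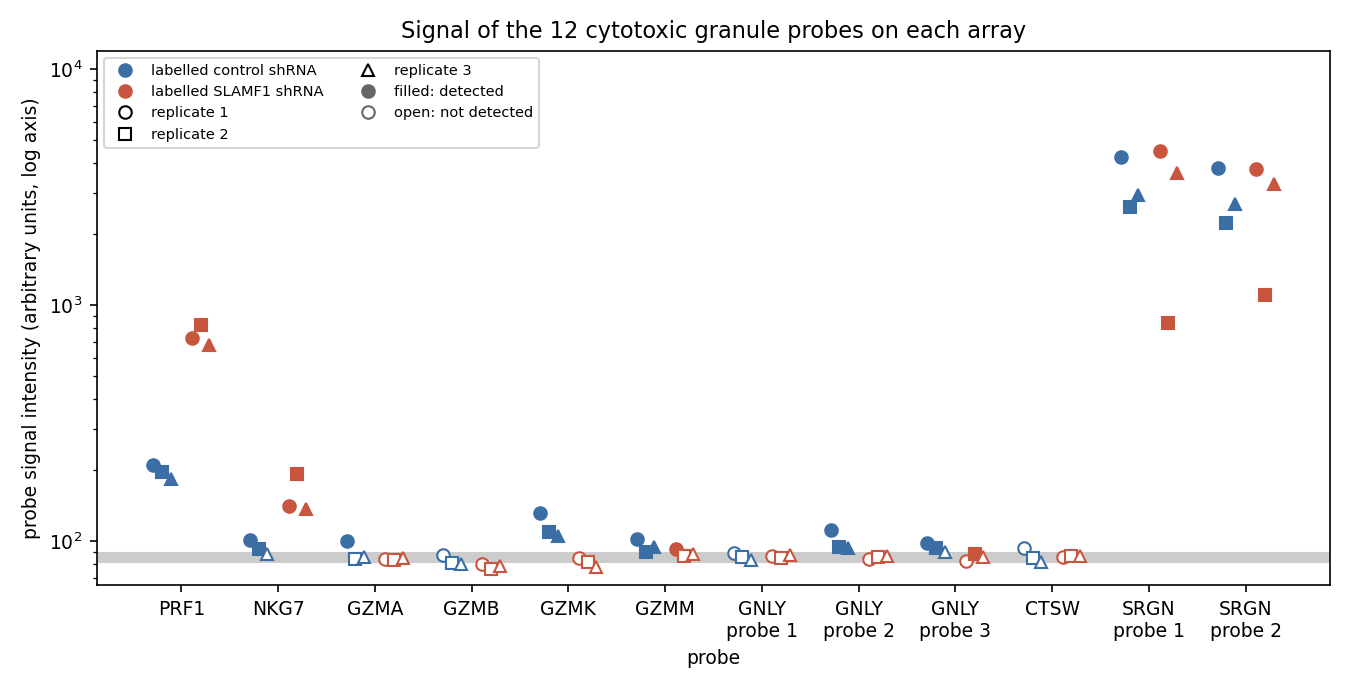
Deposited signal intensity (log axis, arbitrary units) of the 12 probes on each of the 6 arrays, with colour for the label, shape for the replicate and open symbols where a probe was not detected; the grey band is the range of background signal, 82.0 to 88.7. PRF1 on the SLAMF1 shRNA arrays and both SRGN probes stand far above the band, while GZMB, CTSW and GNLY probe 1 lie in or next to it on every array.

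The pore-forming protein gene PRF1 was detected on all 6 arrays. Its signal was 210.7, 195.8 and 183.4 on control replicates 1 to 3 and 730.2, 828.9 and 679.4 on SLAMF1 shRNA replicates 1 to 3. Every SLAMF1 shRNA array lay far above every control array, and replicate 2 was the highest. The normalized log2 level rose from 6.84 ± 0.16 to 9.51 ± 0.41 (SD, n = 3 each). This is a 6.36-fold increase (log2 difference 2.67, standard error 0.23, adjusted p = 0.000229), which ranked 69 from the top among all 10832 genes. The call held under all 15 alternatives tried, with log2 differences of 2.03 to 2.81. The lowest came with no background correction, which compresses differences of dim probes, and 2.04 with the second deposited table. Without SLAMF1 shRNA replicate 2 the difference was 2.40.

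NKG7, whose product sits in the granule membrane and takes part in granule release in mouse and human lymphocytes, was dimmer but moved the same way. Its signal on the control arrays was 101.4, 92.4 and 88.4, the last of them not detected, and on the SLAMF1 shRNA arrays 141.6, 193.1 and 136.6. The highest control array lay below the lowest SLAMF1 shRNA array, and replicate 2 was again the highest. The log2 level rose from 4.58 ± 0.14 to 6.56 ± 0.93 (SD, n = 3 each), a 3.94-fold increase (log2 difference 1.98, standard error 0.41, adjusted p = 0.0113). This call was less stable than that of PRF1. It was lost with no background correction (log2 difference 0.78, adjusted p = 0.085), with the second deposited table (0.79, adjusted p = 0.0846), without control replicate 1 (1.98, adjusted p = 0.0528) and without control replicate 3 (1.88, adjusted p = 0.0601). With an offset of 50 the difference was 1.19 (adjusted p = 0.0481). Without SLAMF1 shRNA replicate 2 it was 1.54 (adjusted p = 1.53e-05).

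**Figure D2:**
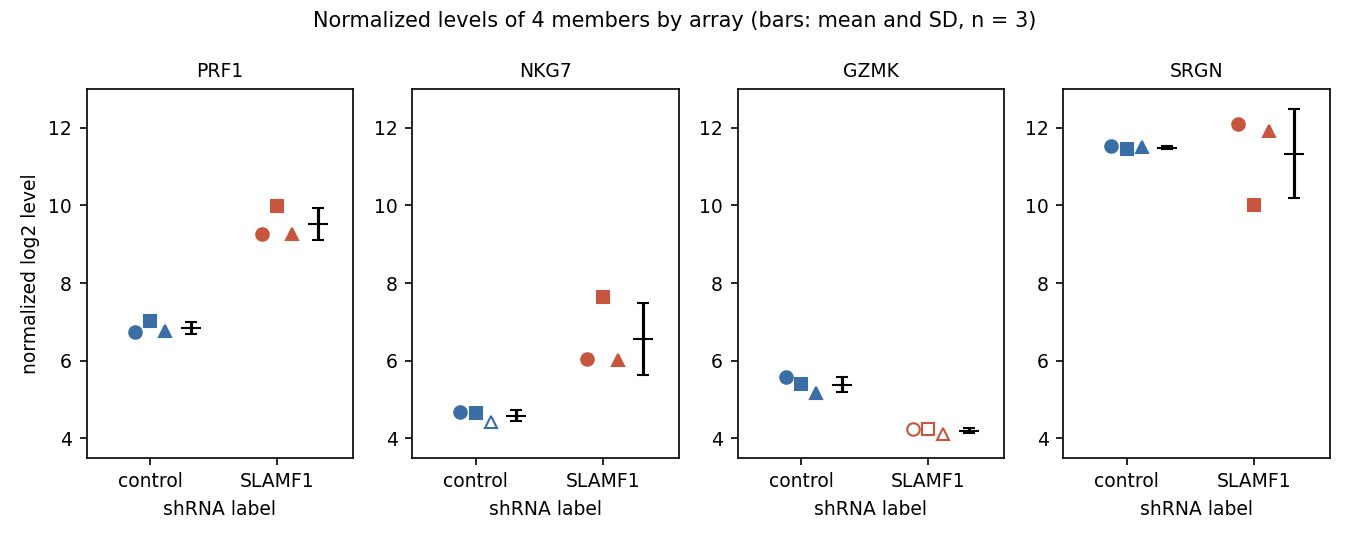
Normalized log2 levels of PRF1, NKG7, GZMK and SRGN on each array (circle, square and triangle for replicates 1, 2 and 3; open symbols not detected), with the mean and SD of the 3 arrays of each label beside them. PRF1 and NKG7 separate upwards and GZMK downwards, and the square of SRGN under the SLAMF1 label, at 10.01, lies below all control arrays.

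Among the granzymes, GZMK alone was called. Granzyme K is a tryptase-like granzyme, in humans made mainly by T cell subsets. Its probe was detected on all 3 control arrays (signals of 131.1, 109.9 and 104.8) and on none of the SLAMF1 shRNA arrays (85.0, 82.0 and 77.96). The control signals lay 21.6 to 42.4 units above background, a dim but separate signal, and the others lay at background. The measured log2 levels were 5.39 ± 0.20 and 4.20 ± 0.07 (SD, n = 3 each; adjusted p = 0.00238). Since the second is only a bound, GZMK was at least 1.84-fold lower: the control mean is set against the higher, on each array, of the probe's own level and the lowest level of any detected probe. With an offset of 50 the log2 difference was -0.54, and with no background correction -0.37, with the call kept in both. The pattern of detection on every control array and on no SLAMF1 shRNA array was shared by 2.44% of tested genes. GNLY was the other member with it. The reverse pattern was seen in 1.81% of tested genes and in no member. A probe with either pattern passes the filter only through the label where it is detected. Its direction is thus fixed by the filter, and these shares are description only. With no filter on dim probes limma still called GZMK lower (adjusted p = 0.00309).

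GZMM, the granzyme that cleaves after methionine or leucine, was at the limit of detection. It was detected on 3 control arrays (signals of 102.5, 90.0 and 94.9) and on 1 SLAMF1 shRNA array (92.5, against 86.7 and 88.2). The 2 labels overlapped, and the log2 difference was -0.19 (95% interval -0.56 to 0.19, adjusted p = 0.436). GZMA, the most widely expressed tryptase of killer cells, was detected on control replicate 1 only (signal 100.2) and read 82.9 to 85.8 on the other 5 arrays. GZMB, the granzyme that activates caspases and the one that stimulated B cells can make, was detected on no array, with signals of 76.5 to 87.0. With no filter on dim probes, which tests 20046 genes, GZMA gave a log2 difference of -0.15 (adjusted p = 0.565) and GZMB -0.04 (adjusted p = 0.76), values that carry no level since the probes were at background.

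Granulysin gave faint signals that depended on the probe. The tested GNLY probe read 111.2, 94.2 and 93.8 on the control arrays, all detected, and 84.0, 86.1 and 86.2 on the SLAMF1 shRNA arrays, none detected. The labels did not overlap, but the test was not passed (log2 difference -0.50, standard error 0.17, adjusted p = 0.0679). It was passed without SLAMF1 shRNA replicate 2 (-0.61, adjusted p = 0.0131), with trend and robust variance (adjusted p = 0.03) and with no filter on dim probes (adjusted p = 0.0496). A second probe was detected on control replicates 1 and 2 and SLAMF1 shRNA replicate 2, and gave -0.21 (adjusted p = 0.45 with each probe tested separately). The remaining GNLY probe was detected on no array. CTSW was not detected on any array, with signals of 82.0 to 93.2.

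Serglycin was bright on every array, at signals 756 or more units above background. The tested SRGN probe read 4255, 2600 and 2948 on the control arrays and 4521, 838.2 and 3648 on the SLAMF1 shRNA arrays. The second probe followed it, with 3816, 2236 and 2676 against 3774, 1102 and 3260. Replicate 2 of the SLAMF1 shRNA arrays was the lowest of the 6 by both probes, while replicates 1 and 3 were the highest after normalization, at log2 levels of 12.09 and 11.91 against 11.44 to 11.53 in the controls. Over all arrays SRGN did not pass the test (11.49 ± 0.05 against 11.34 ± 1.15, SD, n = 3 each; log2 difference -0.16, 95% interval -1.30 to 0.99, adjusted p = 0.846). Without that 1 array the sign turned and the test was passed (0.50, a 1.41-fold increase, adjusted p = 0.0266). The array that was lowest for SRGN was the highest for PRF1 and NKG7, so the members did not move together among the 3 SLAMF1 shRNA arrays. Its detected share of probes, 36.3%, was the lowest of the 6. What part the quality of this array had in these values was not tested.

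**Figure D3:**
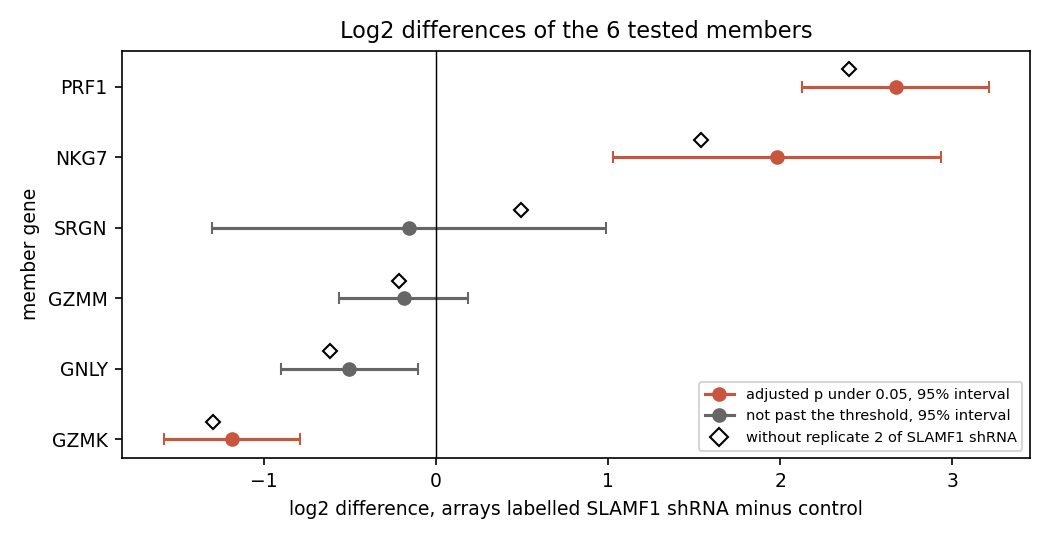
Log2 differences (arrays labelled SLAMF1 shRNA minus control) of the 6 tested members with 95% intervals from limma, red where the adjusted p was under 0.05; diamonds give the difference without SLAMF1 shRNA replicate 2. PRF1 and NKG7 lie to the right and GZMK to the left of 0, and only SRGN changes side without that array.

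Markers of B cells were detected, and most defining markers of killer lymphocytes were not. Of 30 T and NK cell markers, 7 to 8 were detected per control array and 9 per SLAMF1 shRNA array, and 13 were detected on no array. CD3D and CD3E (T cell receptor complex), CD8A (co-receptor of killer T cells), KLRD1 and NCR1 (NK cell receptors) were among those detected on no array. CD3G was detected on 1 SLAMF1 shRNA array and NCAM1, by its brightest probe, on 2 of them. The summed normalized intensity of the list over background, with 1 probe a gene, was 214 to 222 on the control arrays and 180 to 324 on the others. CD247, the zeta chain of the T cell receptor, was detected on all 3 control arrays and no SLAMF1 shRNA array by the tested probe, and was called lower (at least 1.4-fold, adjusted p = 0.0266). So was CD6, a co-receptor of T cells detected on the same arrays (at least 1.32-fold, adjusted p = 0.0156). Both tested probes passed the filter only through the control arrays. Their direction was thus fixed by the filter, and these calls are description only. A second CD247 probe was detected on 4 of the 6 arrays and gave a log2 difference of -0.58. At an unadjusted p under 0.05 in limma, the 8 markers tested counted 1 higher and 2 lower. After adjustment 0 were called higher and 2 lower, where 12.9% and 11.7% of all tested genes were. Both calls were lost without control replicate 2 (CD247 adjusted p = 0.102, CD6 0.0557), control replicate 3 (0.0518 and 0.0818), SLAMF1 shRNA replicate 1 (0.0779 and 0.0508) or 3 (0.0693 and 0.0567), and that of CD247 also without control replicate 1 (0.0848). Neither call held at an offset of 50, in the other deposited table or when background was left in, and that of CD247 did not hold with the replicate number as a block (adjusted p = 0.072).

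Of 14 B cell markers, 12 were detected per control array and 13 to 14 per SLAMF1 shRNA array, with a summed level of 3510 to 4300 against 8710 to 10500. CD79A and MS4A1 (CD20) were detected on all 6 arrays, and PAX5 on 1 by its single probe. Of the 13 tested, 7 were higher and 2 lower, where 12.9% and 11.7% of all tested genes were. The higher ones included CD22, an inhibitory receptor (log2 difference 2.37, and 1.47 with uncorrected background), and FCER2 (CD23, 1.72). Also higher were the signalling chains of the B cell receptor, CD79A (1.93, other probes 0.505 to 2.114) and CD79B (1.83, other probes 1.925 to 1.999). CD22, FCER2, CD79A and CD79B had the largest differences among the called markers in either direction. The 2 lower markers, with smaller differences, are not named. The lower count was 1 without any 1 control replicate or SLAMF1 shRNA replicate 3, and also 1 with uncorrected background, an offset of 50, median centring, the second table, no filter or the replicate block. Of 9 plasma cell markers, 4 were higher and 1 lower: JCHAIN, the joining chain of secreted antibodies, rose by 2.72 on the log2 scale, and SDC1 (CD138) fell by 3.14, while a second SDC1 probe gave -0.02. With median centring 2 plasma cell markers were higher in place of 4, and with uncorrected background SDC1 gave -1.61, still called. Of 18 myeloid and mast cell markers, 2 to 8 were detected per control array and 2 to 4 per SLAMF1 shRNA array. Of the 3 tested only CSF1R was called, as at least 1.53-fold higher (measured log2 difference 0.82, and 0.23 with uncorrected background). Its probe was detected on no control array and passed the filter only through the SLAMF1 shRNA arrays, which fixed its direction. Since these were bulk samples of 1 cell line, fewer cells carrying a transcript and less of it per cell cannot be told apart.

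Further cargo and sorting genes of the granule gave calls in each direction. Among 12 that were tested, limma called 2 higher and 3 lower, where 12.9% and 11.7% of all tested genes were. The median log2 difference was 0.03. IGF2R, the large mannose 6-phosphate receptor that carries lysosomal enzymes and granzymes to their compartment, read log2 levels of 9.30, 9.52 and 9.50 on the control arrays and 5.87, 4.72 and 5.72 on the others. Every SLAMF1 shRNA array lay below every control array, a 16.1-fold decrease (log2 difference -4.0, standard error 0.30, adjusted p = 0.000113) that ranked 14 among all decreases. M6PR, the small mannose 6-phosphate receptor, was singled out after its values were seen and gave 0.12 (95% interval -0.79 to 1.04, adjusted p = 0.85). CTSC, the dipeptidyl peptidase that activates granzymes by trimming their ends, fell by 1.99 on the log2 scale (adjusted p = 0.00674), with 3 other probes at -2.04 to -0.65. The cathepsin genes CTSH (-1.21) and CTSB (1.47) moved in opposite directions. The count of higher cargo and sorting genes was 1 without any 1 control replicate, with uncorrected background, at an offset of 50, in the second table and with no filter, and 4 without SLAMF1 shRNA replicate 2.

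Of 21 tested genes of granule traffic and release, 2 were higher and 3 lower (median 0.21), a share near the 24.6% called over all tested genes. Inherited loss of STX11 or STXBP2, which act together in the fusion of granules with the surface membrane, or of PRF1 causes familial haemophagocytic lymphohistiocytosis, and these genes did not move together here. STX11 read log2 levels of 8.33, 8.15 and 8.41 on the control arrays and 6.22, 4.42 and 6.44 on the others, with replicate 2 not detected. It fell by 2.60 on the log2 scale (standard error 0.48, adjusted p = 0.00688), and the log2 difference was -1.96 without SLAMF1 shRNA replicate 2. STXBP2 was higher by 1.29 (adjusted p = 0.0258). Its adjusted p missed the threshold when control replicate 1, 2 or 3 was dropped (0.0932, 0.0877 and 0.0918), when dim probes were not filtered (0.0825), when background was left in (0.0732), in the other deposited table (0.0722) and at an offset of 50 (0.0504). VIPAS39, of the vesicle tethering machinery, rose by 1.15, and the myosin gene MYO5A fell by 0.92. The MYO5A call was lost when control replicate 2 or 3 was dropped (adjusted p = 0.0514 and 0.0547). In this list 1 gene was higher without any 1 control replicate, with uncorrected background, at an offset of 50 and in the second table, and 4 were higher without SLAMF1 shRNA replicate 2.

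Inhibitors of granule proteases were called by limma as lower in 2 and higher in 0 of 7 tested genes, the same counts as at an unadjusted p under 0.05 (median log2 difference -0.31). Over all tested genes 11.7% were called lower and 12.9% higher. CSTB (cystatin B), which blocks cysteine cathepsins, fell by 2.87 on the log2 scale (adjusted p = 0.000113), and SERPINB1, an inhibitor of elastase-like serine proteases, gave -1.33 (adjusted p = 0.00104). SERPINB1 was not detected on SLAMF1 shRNA replicates 1 and 2, so this is a difference from background on those arrays, and it was -0.64 at an offset of 50 and -0.40 with uncorrected background, still called. SERPINB9, the granzyme B inhibitor, was chosen after its values were seen and gave 0.23 (95% interval -1.03 to 1.49, adjusted p = 0.788). Without SLAMF1 shRNA replicate 2 the list counted 1 higher and 3 lower, and with the strict filter 1 lower.

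Serglycin carries sulphated sugar chains that hold the cargo, and the enzymes that build such chains were examined as a list. Of 19 tested, 3 were higher and 2 lower (median 0.33), a share near the 24.6% called over all tested genes. DSE, which converts chondroitin sulphate into dermatan sulphate, fell by 3.34 on the log2 scale (adjusted p = 2.91e-05), from 7.87 ± 0.16 to 4.53 ± 0.22 (SD, n = 3 each), with replicate 2 of the SLAMF1 shRNA arrays not detected. XYLT1, which adds the first sugar of a chain to the core protein, rose by 2.10 (adjusted p = 0.000192), the sulphotransferase gene CHST7 by 1.09 (adjusted p = 0.00306) and EXT1, which extends heparan sulphate, by 0.90 (adjusted p = 0.00832). The EXT1 call was lost with median centring (0.67, adjusted p = 0.0545). Without SLAMF1 shRNA replicate 2 the list counted 6 higher. The lower count was 1 without control replicate 2 or 3 or SLAMF1 shRNA replicate 1 or 3, and under every change of processing tried except an offset of 50 and each probe separately.

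**Figure D4:**
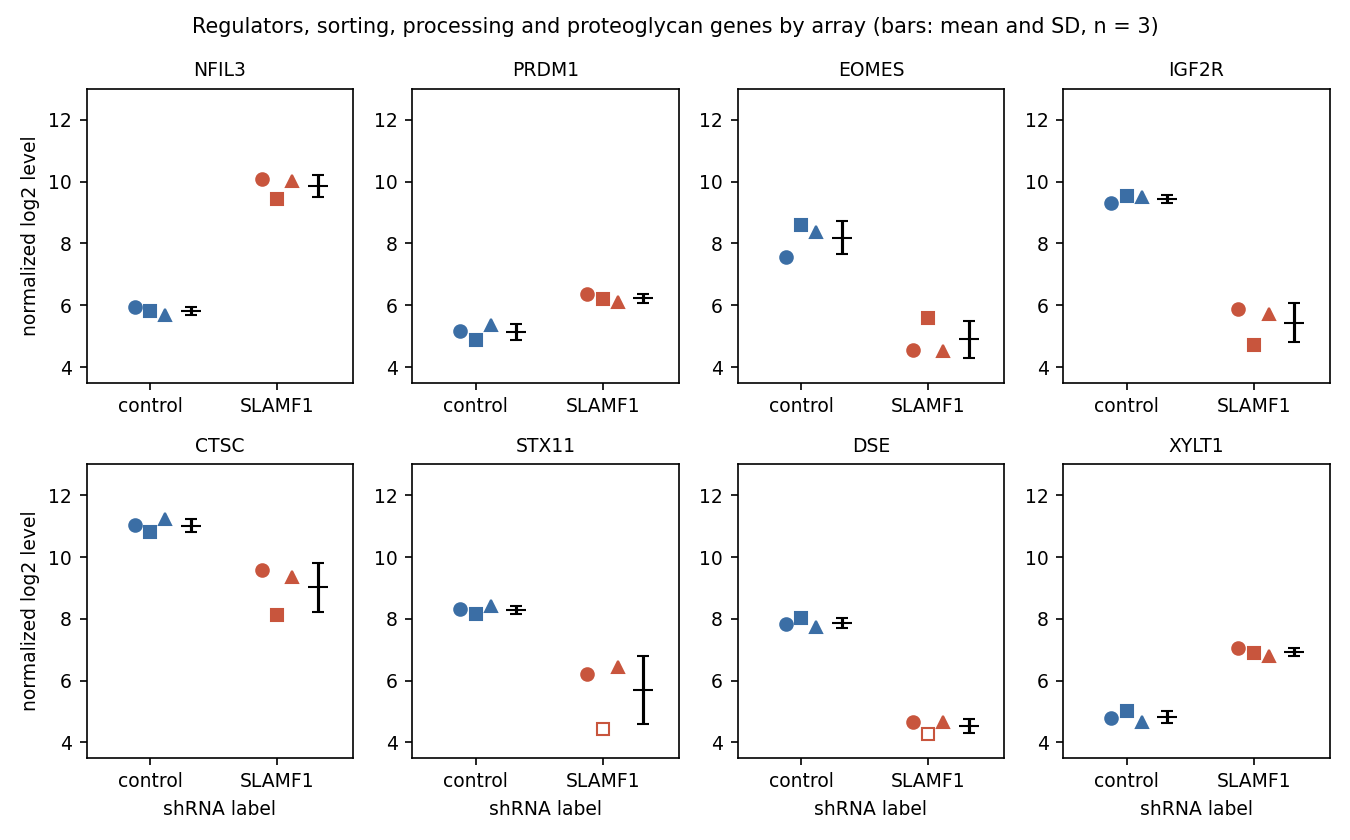
Normalized log2 levels on each array of 3 transcription factor genes (NFIL3, PRDM1, EOMES), the sorting receptor IGF2R, the granzyme-activating CTSC, the fusion gene STX11 and the sugar chain genes DSE and XYLT1, with symbols as in the plot of member levels and the mean and SD of 3 arrays. NFIL3, PRDM1 and XYLT1 are higher and the other 5 lower on every array labelled SLAMF1 shRNA.

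Transcription factors that control killer lymphocytes also diverged. Of 22 tested, 6 were higher and 3 lower (median 0.30), where 12.9% and 11.7% of all tested genes were. EOMES, a T-box factor that activates PRF1 in T and NK cells, read log2 levels of 7.58, 8.61 and 8.39 on the control arrays and 4.56, 5.59 and 4.53 on the others. All SLAMF1 shRNA arrays lay below all control arrays. SLAMF1 shRNA replicates 1 and 3 lay close to the lowest level of any detected probe on those arrays, 4.47 on each. EOMES fell 9.83-fold (log2 difference -3.30, standard error 0.36, adjusted p = 0.000647), a size that depends on this floor. Whether this bears on PRF1, which rose, was not tested. NFIL3, a factor needed for NK cell development, rose from 5.82 ± 0.13 to 9.85 ± 0.35 (SD, n = 3 each), a 16.4-fold increase (adjusted p = 2.35e-05). LEF1 was at least 11.6-fold higher, not being detected on any control array. Its tested probe passed the filter only through the SLAMF1 shRNA arrays, so its direction was fixed by the filter. PRDM1 (Blimp-1), the plasma cell factor that also acts in killer T cells, rose by 1.09 (adjusted p = 0.0053). The PRDM1 call was lost with median centring (0.90, adjusted p = 0.064). TBX21 (T-bet) and RUNX3 were singled out after their values were seen: TBX21 gave 0.08 (standard error 0.20, adjusted p = 0.805) and RUNX3 fell by 0.79 (adjusted p = 0.0106). With median centring the list counted 3 higher in place of 6. It counted 10 higher without SLAMF1 shRNA replicate 2, and 1 lower without control replicate 3 or with the strict filter (a detection p-value under 0.01 on each array). With no background correction the dim end of the scale is compressed, and the smallest sizes under any alternative were -1.72 for EOMES, 2.84 for NFIL3, 1.77 for LEF1, 0.41 for PRDM1, -2.59 for IGF2R, -1.49 for STX11, -2.21 for CSTB, 0.83 for CTSB, -1.58 for DSE and 0.87 for XYLT1, all still called at that setting.

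A list of lymphocyte receptors and kinases, drawn up around the induction of granule genes, had 14 tested genes. At an unadjusted p under 0.05 in limma, 5 were higher and 0 lower. After adjustment 2 were called higher and 0 lower, where 12.9% and 11.7% of all tested genes were. The 2 called were the chains of the interleukin-10 receptor, IL10RB (log2 difference 1.47, adjusted p = 0.000598) and IL10RA (1.08, adjusted p = 0.0155). IL10RA lost its call without any 1 control replicate (adjusted p = 0.0651, 0.0627 and 0.055), and the list counted 5 higher without SLAMF1 shRNA replicate 2 and 4 with no filter. The smallest difference of IL10RA under any alternative was 0.48. IL21R, the receptor for the cytokine that induces granzyme B in B cells, was chosen after its values were seen and gave -0.25 (standard error 0.23, adjusted p = 0.455).

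Substrates and effectors of granzymes in a target cell were called in 6 of 20 tested genes, 4 higher and 2 lower (median -0.24), a share near the 24.6% called over all tested genes. HAX1 (1.35, other probes 0.51 to 0.94) and MCL1 (1.19, another probe -0.76), both known for holding back cell death, were higher by the tested probe. BID, which granzyme B cleaves to reach mitochondria, was lower (-0.79), as was the DNA topoisomerase gene TOP1 (-1.19). The adjusted p of BID missed the threshold when control replicate 3 (0.0736) or SLAMF1 shRNA replicate 3 (0.0517) was dropped and under median centring (0.0557). The split depended on the setting: median centring gave 2 higher and 1 lower, and the lower count was 4 with uncorrected background, in the second table and with trend and robust variance. The higher count was 2 without control replicate 1 or 2 or SLAMF1 shRNA replicate 3, and the lower count 1 without control replicate 3 or SLAMF1 shRNA replicate 3.

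**Figure D5:**
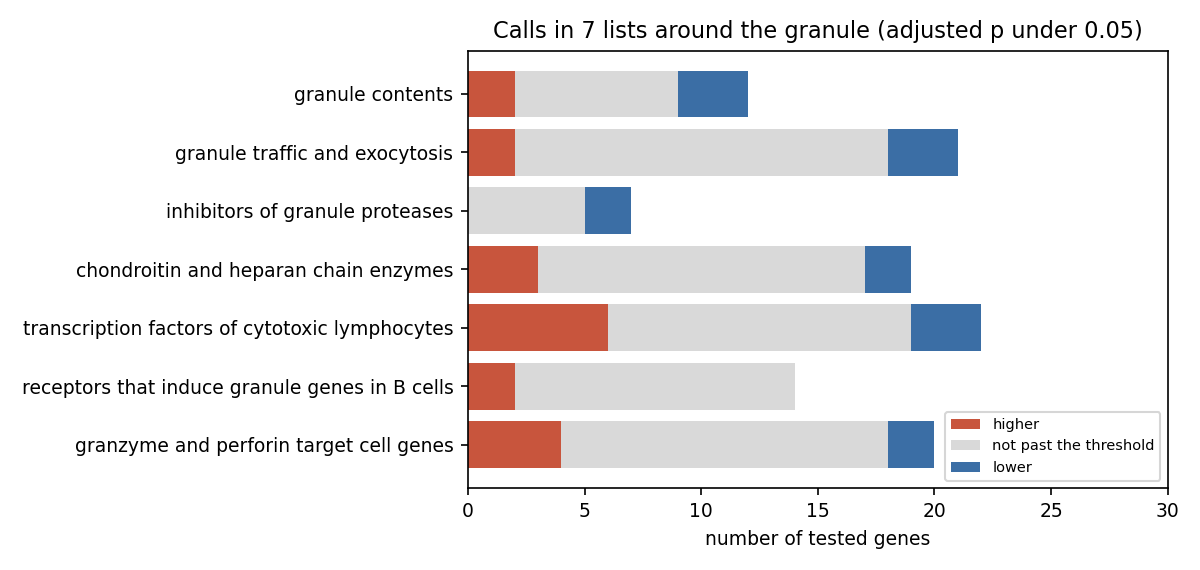
Number of tested genes called higher (red), called lower (blue) or not past the threshold (grey) in each of the 7 lists around the granule. All lists but the receptors and the inhibitors hold calls in both directions, against 12.9% higher and 11.7% lower over all tested genes.

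The nearest tested genes on either side of each tested member were looked up after their values were seen, and they gave calls in both directions. These calls are to be read against the 12.9% higher and 11.7% lower, 24.6% in all, over all tested genes. Whether they hold under the alternatives was not tested. Of the 3 tested genes on either side of PRF1 on chromosome 10, LRRC20 (log2 difference -1.06) and PCBD1 (-1.08) were lower and none was higher. Around NKG7 on chromosome 19, its next neighbour CLDND2 (0.98, adjusted p = 0.0483), ETFB (0.91, adjusted p = 0.0286) and ZNF175 (0.74, adjusted p = 0.0301) were higher, by less than NKG7, and none was lower. Around GZMK on chromosome 5, DHX29 (-0.83) was lower and the others were not called. Around GNLY on chromosome 2, USP39 (-0.90) and ST3GAL5 (-0.72) were lower, and around GZMM on chromosome 19 none was called. Around SRGN on chromosome 10, HK1 (0.97, adjusted p = 0.00895) was higher.

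The genes whose levels followed each tested member most closely were found by the root mean square difference of log2 levels, centred on their mean, over the 6 arrays. For PRF1 these were TERC (0.09), ABLIM1 (0.10) and NIPAL3 (0.12), for NKG7 PCBP4 (0.11), HINT2 (0.13) and GCHFR (0.14), and for GZMK LFNG (0.06), SLIRP (0.08) and PHF10 (0.09). For SRGN they were NCF1, FNTA and NBN (all 0.09), for GNLY POLR2F, ZCCHC18 and LYSET (all 0.06), and for GZMM NKAP, FGL2 and ARHGAP8 (all 0.04). No member was among the 3 nearest genes of another member.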

How the data were processed

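Total RNA of 6 Mec-1 samples was amplified and biotin-labelled, per the labels' protocols, which speak of purified leukaemic cells although the samples are of a cell line. The authors deposited an intensity for each of 47323 probes and array, with a detection p-value per the file headers; GenomeStudio is named in the submitters' processing notes, its version not given in the sources used here. The lowest intensities showed that background had not been subtracted. A second deposited intensity table lay within 1% of the quantile-normalized signals for 100% of values, and served as an alternative. Its linear scale and lack of centring were read from the values (column medians of 87.9), its step of normalization is not stated.

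The normal-exponential background correction of limma 3.58.1 (R 4.3.3), fitted through the detection p-values, was followed by an offset of 16, log2 and quantile normalization. This log2 scale understates changes of dim genes. Probes were named from the platform annotation with symbols updated through RefSeq (GRCh38.p14). A detection p-value under 0.05 on 3 of 6 arrays kept 19073 probes, and the brightest probe of each gene was tested, 10832 genes in all, by lmFit and eBayes on 6 arrays with no covariate. Background signal is the mean of probes with a detection p-value of 0.45 to 0.55. The number of arrays limits the precision. The fit was also run on simulated data with normal spread, set differences and no outlying array. This checked the code only and does not bear on the calls above.

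The members, lists and tests were chosen with earlier results of these data known. The text names the 9 members, SLAMF1, up to 4 called genes of each list with the largest difference, defining markers and the 3 genes nearest to a member in profile. Flanking genes and those said to be singled out were added after their values were seen. Alternatives were the second table, uncorrected background, median centring, an offset of 50, no filter, a stricter one (each of the 6 arrays with a detection p-value under 0.01), each probe separately, the replicate number as a block, trend and robust variance, and leaving out each array with the tested probes kept.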

Additional observations from a re-analysis of the deposited data

How the results depend on the processing

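PRF1 and GZMK kept their direction and their call under every alternative that could test them. The count of members called higher, 2, was 1 with no background correction (NKG7 0.78), with the second table (NKG7 0.79) and with the strict filter (each of the 6 arrays under a detection p-value of 0.01), where PRF1 and SRGN were the 2 members tested, and 1 to 3 with an array left out. The count called lower, 1, was 2 with no filter and with trend and robust variance (GNLY -0.50 in both), 0 of those 2 members by limma with the strict filter, and 1 to 2 with an array left out. Leaving out each array in turn gave 1.54 to 2.25 for NKG7, -0.61 to -0.38 for GNLY and -0.54 to 0.50 for SRGN, whose sign turned without SLAMF1 shRNA replicate 2 (0.50). It gave 674 to 2118 genes higher (main 1400) and 626 to 1896 lower (main 1269), and 12 to 35 list genes higher (main 19) and 10 to 20 lower (main 15). Median centring gave 815 genes higher, and the strict filter, which tests 7809 genes, gave 830 lower and 9 list genes lower. Deviations of arrays with the same replicate number correlated at -0.20, -0.14 and 0.21, within the -0.29 to 0.26 of arrays with unlike numbers. With 3 arrays a label this cannot decide whether the numbers mark pairs. With the replicate block 1107 genes were higher and 961 lower, and the members' counts were 2 and 1. The causes of these moves were not tested, except that the strict filter tests fewer genes. Dim signals limit every member but PRF1 and SRGN. NKG7 lay 5.23 to 12.7 units above background on the control arrays, GZMM 3.91 to 13.8 on all arrays and the tested GNLY probe 10.5 to 22.5 on the control arrays, and GZMB and CTSW were at background, so a level below the detection limit of these probes cannot be seen, and 3 arrays a label limit the precision of every value.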
